A study of Homo sapiens with 8 samples.

Results

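The genes described here are 10 genes of the epithelial cell junction: CDH1, CTNNB1, CTNNA1, CTNND1, JUP, EPCAM, TJP1, CLDN3, CLDN4 and F11R. They were chosen by name, as the core of the calcium-dependent and tight junctions. The rule itself uses no measured value, but the choice was made with earlier results of these data known. All 10 were among the 36474 genes counted and among the 21071 genes tested. RNA was sequenced from LNCaP, an established cell line that came from a metastasis of a human prostate carcinoma. According to the labels, every group was first starved for 6 to 12 h in medium lacking serum and calcium, and recombinant human asporin (ASPN, a secreted matrix proteoglycan) was then given at 100 ng/mL. The 8 libraries were 2 collected at 0 h, 3 at 12 h and 3 at 24 h. Cells held equally long without ASPN were not analysed here. Hours in the medium and ASPN exposure therefore cannot be told apart in any comparison below, and the effect of removing calcium itself was not measured because all 8 libraries share it.

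E-cadherin is a transmembrane protein whose outer domains bind E-cadherin on the next cell, and this binding needs calcium ions. Inside the cell, its tail binds p120-catenin and either beta-catenin or plakoglobin, and these connect through alpha-catenin to actin. Tight junctions lie closer to the cell apex and seal the space between cells through claudins and other membrane proteins held on ZO scaffolds. Beta-catenin that is not held at the junction is degraded by a dedicated complex or enters the nucleus, where it acts with TCF/LEF factors on Wnt target genes. E-cadherin loss is a known feature of many invasive carcinomas, and LNCaP is a line that retains epithelial junctions. The libraries measure RNA from a whole culture, in which fewer cells expressing a gene and less of its RNA per cell cannot be told apart, and they hold no information on protein amount or place in the cell.

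Library totals ran from 73406825 to 96962135 counts, and the 10 genes together took 0.248% to 0.256% of them. Mitochondrial genes took 6.20% to 7.32%. All 6 markers of luminal prostate epithelium examined (KRT8, KRT18, KRT19, KLK2, KLK3 and FOXA1) were counted in every library. Their summed level was 2507 to 2637 CPM (counts divided by library size after TMM normalization) at 0 h, 2951 to 3102 CPM at 12 h and 2788 to 2949 CPM at 24 h, so the 0 h range lay below both others. The 6 markers did not move together: 4 were higher and 2 lower than at 0 h in each comparison. KLK3 had means of 965, 1356 and 1194 CPM at 0, 12 and 24 h, and KLK2 of 174, 227 and 205 CPM. KRT18 fell, with 434, 422 and 392 CPM, and FOXA1 had 515, 513 and 539 CPM. The summed level is therefore no measure of luminal cell content. The part of these marker differences in the results below was not tested. Of the basal markers, 1 of the 2 in the file was above 3 counts in every library, and their sum was at most 0.229 CPM. The leukocyte list summed to at most 0.22 CPM, the endothelial list to between 11.2 and 17.3 CPM, and the fibroblast list to between 21.2 and 23.8 CPM. The endothelial sum was nearly all VWF, with means of 16.0, 14.4 and 12.3 CPM at 0, 12 and 24 h. PECAM1 and CDH5 had at most 2 and 5 counts in any library. The fibroblast sum was mostly COL1A1, with means of 19.5, 20.3 and 19.1 CPM, and DCN had at most 5 counts in any library.

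Promoter sequences of the members that changed are given first. Windows of 250 bases before annotated start sites were found for 6 of the 10 genes in the RefSeq table for GRCh38.p14. Start sites are called first or second below by their order in that table. The annotated CTNNA1 gene begins further upstream, at chr5:138610967, so its first site here is not the start of the gene. CDH1, CTNND1, EPCAM and F11R had no entry. Stretches from the windows of the 3 genes that passed the test described below are shown because their RNA moved, each 5′ to 3′ on the gene's own strand. Not every window of these genes is printed. Capitals mark a match to the E-box, CACCTG or on the other strand CAGGTG, the motif bound by SNAIL and ZEB family repressors of CDH1, or to the TCF/LEF core, CTTTGA or on the other strand TCAAAG. The 2 motifs do not overlap each other.
JUP, minus strand of chr17:41786007-41786036, before the second annotated start site: tggcccCACCTGccgagCAGGTGagcgcac
CLDN4, plus strand of chr7:73830780-73830809: cctcagcatgggCTTTGAggaaggggagag
CTNNA1, plus strand of chr5:138753175-138753417, before the first annotated start site and with no match: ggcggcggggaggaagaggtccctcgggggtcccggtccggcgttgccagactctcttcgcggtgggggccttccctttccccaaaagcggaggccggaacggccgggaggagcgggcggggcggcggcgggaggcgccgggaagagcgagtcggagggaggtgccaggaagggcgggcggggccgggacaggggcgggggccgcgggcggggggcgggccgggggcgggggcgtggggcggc
The JUP stretch and the CLDN4 stretch each lie wholly in annotated exon sequence of the same gene, whereas the CTNNA1 stretch holds no annotated exon. Over the 13 windows of the 6 genes, 2 held an E-box (JUP and TJP1), 4 held a TCF/LEF core (CTNNA1 in 2 overlapping windows that share a match, TJP1 and CLDN4) and 0 held the TATA core TATAAA. The 2 CTNNA1 windows with a match are not among the stretches printed. The JUP window before its first start site, also not printed, held no match to the E-box or the TCF/LEF core. Of 35116 such windows in the table, 17.5% held the E-box, 11.2% the TCF/LEF core and 10.7% the TATA core. A match describes letters in a window and is no evidence of a bound site.

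Changes were small throughout. JUP and CLDN4 RNA were higher at both 12 h and 24 h than at 0 h, CTNNA1 RNA fell by 24 h, and CDH1 itself did not pass the test in any comparison. JUP, which encodes plakoglobin, was 21.7% higher at 12 h and 23.6% higher at 24 h than at 0 h. CLDN4, which encodes claudin-4, was 11.9% and 12.8% higher. CTNNA1, which encodes alpha-catenin, fell by 8.46% at 24 h. A gene passed the test when its adjusted p was at most 0.05 in the quasi-likelihood F test of edgeR, adjusted by Benjamini-Hochberg over all genes tested. It was also called changed where the fold was at least 1.5, the size the study required, and 0 of the 10 genes reached that size in any comparison.

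At 12 h, 2 of the 10 genes passed, JUP and CLDN4, both higher, beside 11.6% of all genes tested (4.85% higher and 6.75% lower). The share called at 1.5-fold was 1.05% of all genes and 0 of the 10 members. The groups did not overlap for 3 of the 10 (JUP, CLDN4 and CTNNA1), beside 36.9% of all genes (17.3% higher and 19.6% lower). At 24 h, 3 of the 10 passed (JUP, CLDN4 and CTNNA1), beside 16.3% of all genes (7.82% higher and 8.49% lower), and 0 were called, beside 2.45%. The groups did not overlap for 8 of the 10, beside 43.2% of all genes (21.5% higher and 21.7% lower), and 4 of these 8 were lower (CDH1, CTNNA1, TJP1 and F11R) and 4 higher (CTNNB1, JUP, CLDN3 and CLDN4). The members are well counted, with means of 1987 to 46423 counts a library. Among the 7123 genes counted at least as deeply as the lowest of them, 23.3% passed at 12 h and 29.7% at 24 h. The members' passing shares thus lay near those of equally counted genes. Shares without overlap were computed over all genes only, and so are not matched to the members' depth. The median log2 difference of the 10 was -0.045 at 12 h and 0.022 at 24 h, beside -0.00069 and -0.0031 over all genes tested. The 0 h libraries enter both comparisons, so the 2 sets of differences are not independent of each other.

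**Figure D1:**
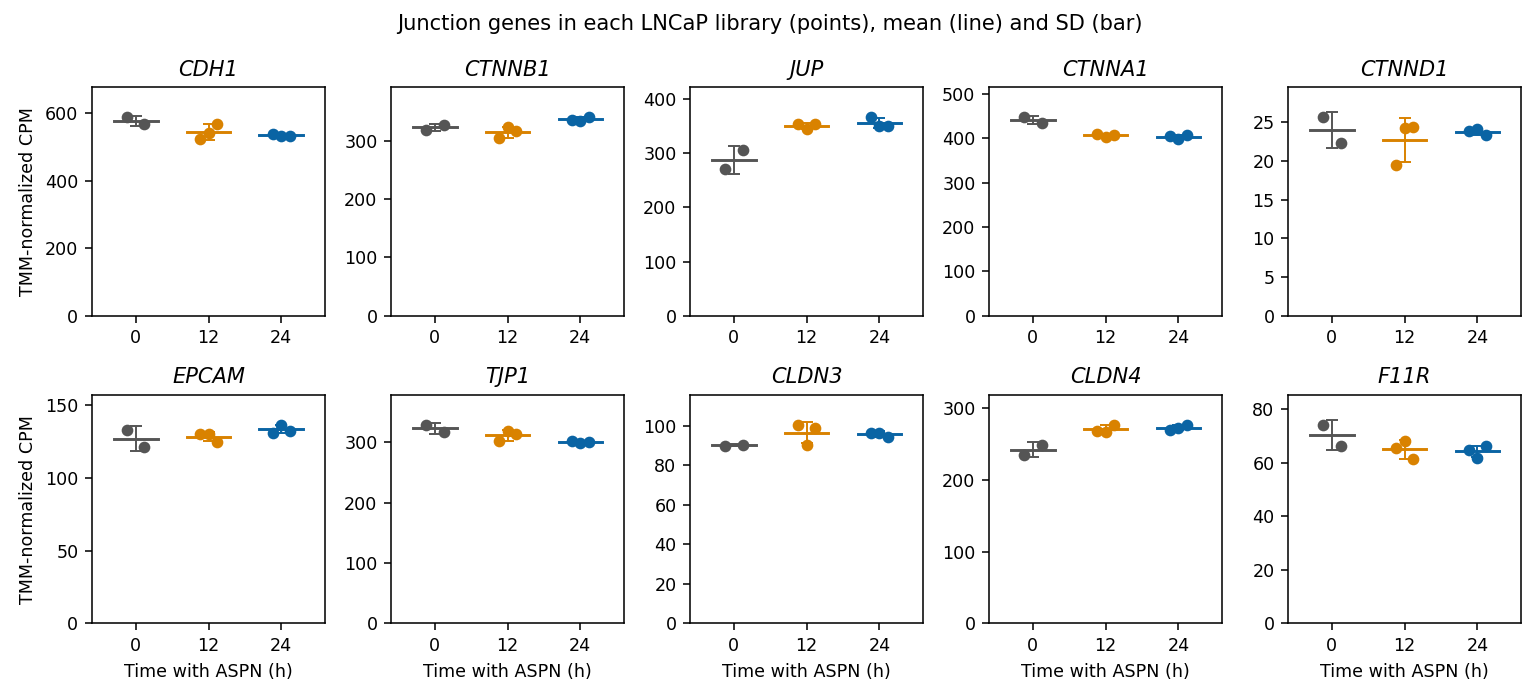
Level of each of the 10 junction genes in each library, in TMM-normalized CPM from 0 on the vertical axis, against hours with ASPN. Points are libraries (2, 3 and 3), lines are group means and bars are SD; JUP and CLDN4 lie higher at 12 and 24 h than at 0 h, CTNNA1 lies lower, and the points of CTNND1 overlap across the 3 times.

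CDH1 encodes E-cadherin, the calcium-binding adhesion receptor of the adherens junction. Its gene lies at chr16:68737292-68835537 on the plus strand (GRCh38). CDH1 measured 589 and 568 CPM in the 0 h libraries, 524, 540.5 and 569 CPM at 12 h, and 540.0, 533 and 534 CPM at 24 h. One 12 h library lay within the 0 h range, whereas all 3 of the 24 h libraries lay below both 0 h libraries. The log2 difference was -0.088 at 12 h (95% interval -0.17 to -0.00034, adjusted p = 0.210) and -0.11 at 24 h (95% interval -0.20 to -0.023, adjusted p = 0.0777). Neither passed, and the intervals leave room for a fall of up to 0.20 on the log2 scale and for almost none. The 24 h difference did pass in 3 of 16 alternatives, namely with DESeq2 (adjusted p = 0.0471), with the 12 h libraries left out (adjusted p = 0.0318) and without 12 h library 1 (adjusted p = 0.0291). Over all 8 libraries the highest CDH1 level was 1.12 times the lowest.

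The genes whose course was most like that of CDH1 were PCNX1, NDUFS1, ZNF217, ECPAS and TLK2. Likeness was the root mean square difference of centred log2 CPM over the 8 libraries, computed for 13466 genes with a mean of at least 100 counts. It was 0.018 for PCNX1 and 0.021 for TLK2, beside a whole range of 0.17 log2 for CDH1 itself, which is small.

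CTNNB1 and JUP encode beta-catenin and its close relative plakoglobin, which compete for the same stretch of the E-cadherin tail. Plakoglobin is also a part of desmosomes, and beta-catenin is in addition the nuclear effector of Wnt signals. The JUP gene is at chr17:41754604-41786931 on the minus strand and CTNNB1 at chr3:41194741-41260096 on the plus strand. JUP measured 269.9 and 306 CPM at 0 h, 354, 344 and 353 CPM at 12 h, and 367, 350.1 and 350.3 CPM at 24 h. Both 0 h libraries lay below all 6 later ones, and the 0 h libraries differed from each other more than the later libraries did within a time point. The mean rose from 287.9 ± 25.5 CPM (SD, n = 2) to 350.4 ± 5.65 (SD, n = 3) and 356 ± 9.45 (SD, n = 3). On the log2 scale JUP rose by 0.28 at 12 h with an SE of 0.048 (adjusted p = 9.38e-05). At 24 h it stood 0.31 above 0 h with an SE of 0.048 (adjusted p = 1.51e-05). JUP passed in all 16 alternatives in both comparisons, with log2 differences from 0.20 to 0.39 at 12 h and from 0.21 to 0.40 at 24 h.

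CTNNB1 measured 319 and 327 CPM at 0 h, 304, 323 and 316 CPM at 12 h, and 336, 334 and 341 CPM at 24 h. The 12 h libraries overlapped those at 0 h, and the 24 h libraries lay above all 5 others. CTNNB1 differed from 0 h by -0.038 log2 at 12 h (95% interval -0.13 to 0.049, adjusted p = 0.657) and 0.060 at 24 h (95% interval -0.027 to 0.15, adjusted p = 0.400). Between 12 h and 24 h it was 0.099 (95% interval 0.021 to 0.18), which had an unadjusted p of 0.0145 and an adjusted p of 0.199. No change in CTNNB1 passed in any of the alternatives run.

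The balance of the 2 catenins was read as the ratio of their counts within each library, which no scaling between libraries can alter. JUP counts were 0.846 and 0.935 times those of CTNNB1 at 0 h. The ratio averaged 1.11 ± 0.0503 (SD, n = 3) at 12 h, with a range of 1.06 to 1.16, and 1.06 ± 0.0323 (SD, n = 3) at 24 h, with a range of 1.03 to 1.09. JUP thus gave fewer reads than CTNNB1 in both 0 h libraries and more in all 6 later ones. Per length of all annotated exons, the JUP level was 2.12 times that of CTNNB1 at 0 h, 2.65 times at 12 h and 2.51 times at 24 h. These factors depend on the length used. Per kilobase of the canonical transcript, JUP was below CTNNB1 at 0 h, at 82.1 against 88.3 CPM. It was above CTNNB1 at 12 h (99.96 against 85.9) and at 24 h (101.5 against 92.0). JUP counts per CDH1 count moved from 0.498 ± 0.0571 at 0 h to 0.644 ± 0.0290 at 12 h and 0.664 ± 0.0132 at 24 h, again without overlap between 0 h and the later libraries. CTNNB1 per CDH1 was 0.559 ± 0.0248, 0.578 ± 0.0217 and 0.629 ± 0.00786, and the 24 h values lay above all others. No test was run on these ratios, which are given as a description. An exact two-sided permutation test could not go below p = 0.2 with 2 libraries against 3, or 0.1 with 3 against 3.

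**Figure D2:**
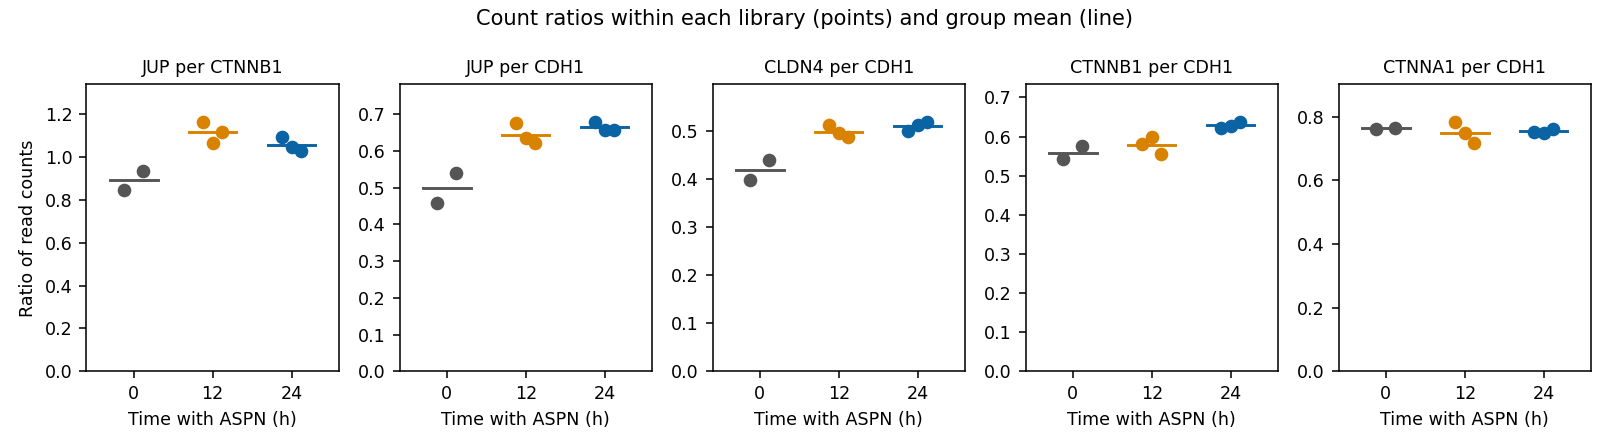
Ratio of read counts of 2 junction genes within each library (vertical axis from 0, no unit) against hours with ASPN; points are libraries and lines are group means. JUP per CTNNB1, JUP per CDH1 and CLDN4 per CDH1 are higher in all 6 later libraries than in both 0 h libraries, and CTNNA1 per CDH1 stays near 0.75.

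CTNNA1 encodes alpha-catenin, which links the cadherin and catenin complex to actin filaments. The gene is at chr5:138610967-138935034 on the plus strand. CTNNA1 measured 448 and 434 CPM at 0 h, 410.4, 404 and 409 CPM at 12 h, and 405, 399.8 and 407 CPM at 24 h. All 6 later libraries lay below both 0 h libraries. Its log2 difference of -0.11 at 12 h did not pass (SE 0.041, adjusted p = 0.0667). That of -0.13 at 24 h did (SE 0.041, adjusted p = 0.0285). The call at 24 h was lost in 6 of 16 alternatives: without a filter on low counts (adjusted p = 0.0749), without 0 h library 1 (adjusted p = 0.195), without 12 h library 3 (adjusted p = 0.0526), and without 24 h library 1 (adjusted p = 0.0839), library 2 (adjusted p = 0.122) or library 3 (adjusted p = 0.0747). With DESeq2 the 12 h difference passed as well (adjusted p = 0.0130). The count ratio to CDH1 was 0.763 ± 0.00286, 0.750 ± 0.0327 and 0.754 ± 0.00671 at the 3 times, with overlap between the 12 h libraries and both other groups. Exons of LRRTM2 on the other strand cover 5.04% of the CTNNA1 exon bases, and LRRTM2 had 29 counts over all libraries.

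CTNND1 encodes p120-catenin, which binds the E-cadherin tail near the membrane and slows its uptake into the cell. It was the least abundant member, at 25.7 and 22.4 CPM at 0 h, 19.5, 24.3 and 24.4 CPM at 12 h, and 23.8, 24.1 and 23.3 CPM at 24 h. The groups overlapped, with 12 h library 1 below all the rest. Its log2 difference from 0 h was -0.081 at 12 h (95% interval -0.24 to 0.082, adjusted p = 0.606) and -0.017 at 24 h (95% interval -0.18 to 0.14, adjusted p = 0.928). Both signs depended on single libraries, since the 12 h difference was 0.024 without 0 h library 1 and 0.025 without 12 h library 1, and the 24 h difference was 0.083 without 0 h library 1. The gene shares 39.1% of its exon bases with 2 readthrough genes on the same strand that had 54 and 19 counts in all. How reads in shared bases were counted was not stated, so the level of CTNND1 is uncertain.

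EPCAM encodes an epithelial adhesion molecule that binds without calcium and is used as a marker of carcinoma cells. EPCAM measured 133 and 121 CPM at 0 h, 130.04, 130.3 and 125 CPM at 12 h, and 131, 137 and 133 CPM at 24 h. The 0 h libraries spanned all of the 12 h values and 2 of the 3 values at 24 h. EPCAM differed by 0.015 log2 at 12 h (95% interval -0.082 to 0.11, adjusted p = 0.895) and 0.071 at 24 h (95% interval -0.027 to 0.17, adjusted p = 0.376). The 12 h value was -0.040 without 0 h library 3.

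CLDN3 and CLDN4 encode claudins, which form the sealing strands of the tight junction. The genes lie near each other on chromosome 7, at chr7:73768997-73770270 on the minus strand and chr7:73799542-73832690 on the plus strand. CLDN4 measured 235 and 249 CPM at 0 h, 268, 267 and 277 CPM at 12 h, and 269, 273 and 277 CPM at 24 h. All 6 later libraries lay above both 0 h libraries, and the 12 h and 24 h libraries overlapped. CLDN4 rose by 0.16 on the log2 scale by 12 h, with an SE of 0.044 (adjusted p = 0.0120). By 24 h the rise was 0.17 with an SE of 0.044 (adjusted p = 0.00476). Without 0 h library 1 the difference was 0.12 at 12 h (adjusted p = 0.261) and 0.13 at 24 h (adjusted p = 0.146), and neither passed. The 12 h call was also lost without 12 h library 3 (adjusted p = 0.0620) and with the 24 h libraries left out (adjusted p = 0.0574).

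CLDN3 measured 89.8 and 90.5 CPM at 0 h, 100.7, 90.5 and 98.9 CPM at 12 h, and 96.7, 96.7 and 94.3 CPM at 24 h. A 12 h library lay between the 0 h libraries by a narrow margin, while the 24 h libraries all lay above them. On the log2 scale CLDN3 differed by 0.10 at 12 h (95% interval -0.00083 to 0.20, adjusted p = 0.217) and 0.089 at 24 h (95% interval -0.012 to 0.19, adjusted p = 0.258). Without 12 h library 2, the low library, CLDN3 passed at 12 h with a log2 difference of 0.15 (adjusted p = 0.0487). The intervals of the 2 claudins overlap, and CLDN4 counts per CLDN3 count were 2.68 ± 0.0982 at 0 h, 2.81 ± 0.144 at 12 h and 2.85 ± 0.0792 at 24 h, with overlap at 12 h.

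TJP1 encodes ZO-1, the scaffold that ties claudins and other tight junction proteins to actin. TJP1 measured 329 and 317 CPM at 0 h, 302, 319 and 313 CPM at 12 h, and 303, 298 and 300.4 CPM at 24 h. The 24 h libraries lay below both 0 h libraries, and the 12 h libraries overlapped both groups. TJP1 differed by -0.053 log2 at 12 h (95% interval -0.14 to 0.034, adjusted p = 0.509) and -0.10 at 24 h (95% interval -0.19 to -0.018, adjusted p = 0.0956). The 24 h difference passed with DESeq2 (adjusted p = 0.0429) and without 12 h library 1 (adjusted p = 0.0430).

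F11R encodes JAM-A, an immunoglobulin-type adhesion molecule of the tight junction. F11R measured 74.2 and 66.4 CPM at 0 h, 65.3, 68.3 and 61.3 CPM at 12 h, and 64.7, 61.9 and 66.1 CPM at 24 h. The 24 h libraries lay just below the lower 0 h library. The log2 difference was -0.12 at 12 h (95% interval -0.23 to -0.0015, adjusted p = 0.204) and -0.13 at 24 h (95% interval -0.24 to -0.018, adjusted p = 0.113). Without 0 h library 3 the 24 h difference was -0.20 and passed (adjusted p = 0.0256). A readthrough gene on the same strand, with 161 counts in all, shares 36.6% of the F11R exon bases, so this level is uncertain too.

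Between 12 h and 24 h, 0 of the 10 genes passed, beside 2.72% of all genes tested and 5.71% of equally counted genes. DESeq2 also gave 0, and at an unadjusted p under 0.05 there was 1, CTNNB1. The log2 differences ran from -0.052 for TJP1 to 0.099 for CTNNB1, with 95% intervals that all lay between -0.13 and 0.21. The groups did not overlap for 2 of the 10, CTNNB1 and EPCAM, both higher at 24 h, beside 19.6% of all genes in either direction and 10.3% higher. At 1.5-fold 0.180% of all genes were called. JUP differed by 0.022 (95% interval -0.064 to 0.11), CLDN4 by 0.012 (95% interval -0.068 to 0.091) and CTNNA1 by -0.013 (95% interval -0.088 to 0.062). The 12 h and 24 h levels of the 3 genes that passed against 0 h were thus within 0.11 log2 of each other by these intervals.

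**Figure D3:**
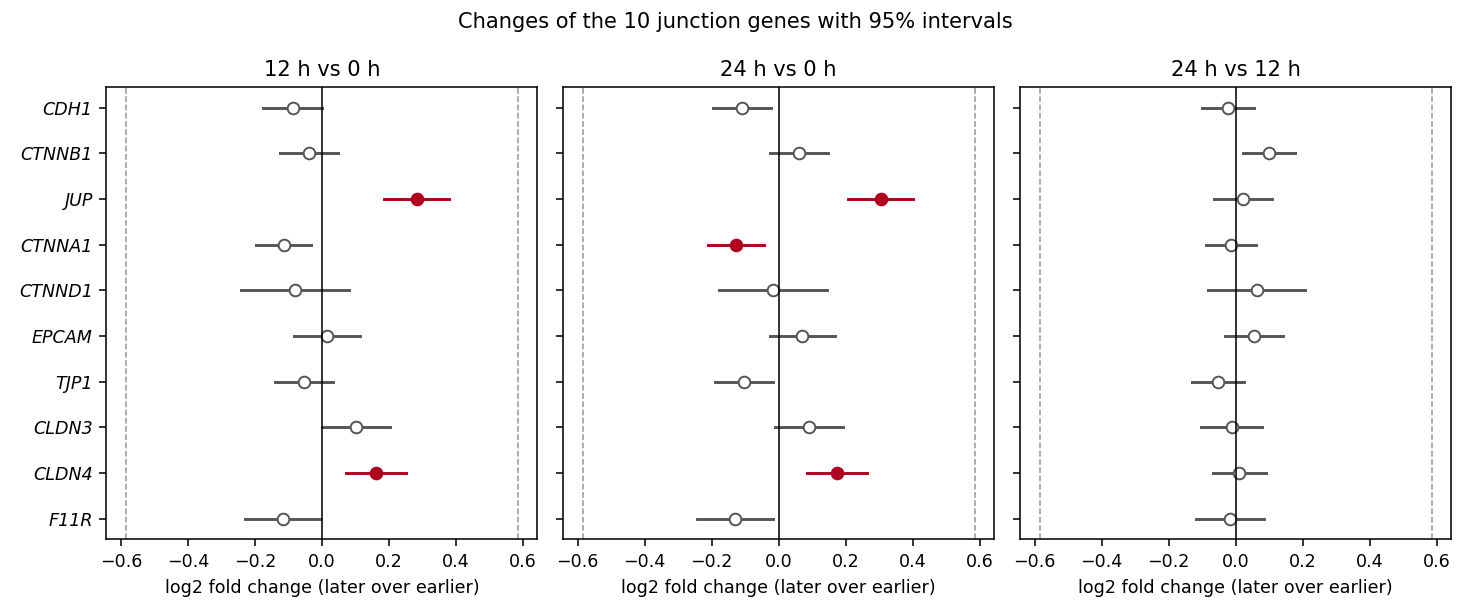
Log2 fold change of each junction gene (later over earlier time point) with its 95% interval in 3 comparisons. Filled red points passed at an adjusted p of at most 0.05 and dashed lines mark 1.5-fold; JUP and CLDN4 passed at 12 and 24 h, CTNNA1 at 24 h, none passed between 12 and 24 h, and every interval lies inside the dashed lines.

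Levels can be set beside each other only per length of transcript, here as TMM-normalized CPM per kilobase of annotated exon (RPKM). At 0 h CDH1 was highest at 95.2 ± 2.48 RPKM (SD, n = 2), followed by CLDN3 at 70.8 ± 0.414 RPKM. JUP at 58.3 ± 5.16, EPCAM at 52.3 ± 3.46, CLDN4 at 51.5 ± 2.18 and CTNNA1 at 49.99 ± 1.11 RPKM formed a group in which each overlapped its neighbour. TJP1 at 28.5 ± 0.767 and CTNNB1 at 27.5 ± 0.506 RPKM were close but did not overlap, F11R had 13.9 ± 1.09 RPKM, and CTNND1 was lowest at 1.58 ± 0.154 RPKM. At 24 h, CLDN3 at 75.3 ± 1.10 and JUP at 71.97 ± 1.91 RPKM (SD, n = 3) overlapped, CLDN4 at 58.1 ± 0.795 RPKM lay above EPCAM at 54.9 ± 1.16 RPKM without overlap, and CTNNB1 at 28.7 ± 0.280 RPKM lay above TJP1 at 26.5 ± 0.193 RPKM. The order depends on the length used. With the length of the canonical transcript, an alternative chosen after seeing the data, CLDN4 was first at 143 and CDH1 second at 120.2 RPKM at 0 h, and CTNNB1 moved from the eighth place to the fourth at 88.3 RPKM. TJP1, F11R and CTNND1 were among the lowest 4 with either length, and CDH1 was among the highest 2.

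**Figure D4:**
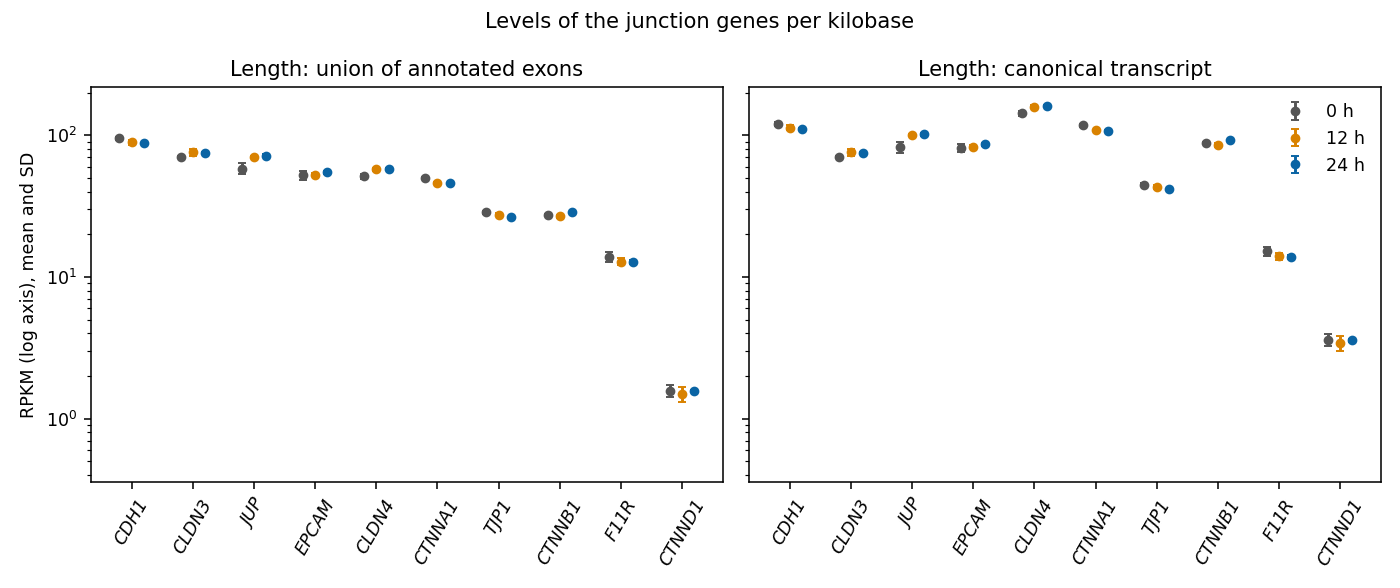
Mean level per kilobase (RPKM, log axis) of each junction gene at 0, 12 and 24 h, with SD, using the length of all annotated exons (left) or of the canonical transcript (right). CDH1 is first or second and CTNND1 last in both panels, while CLDN4, CTNNA1 and CTNNB1 stand higher with the canonical length.

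The wider junction apparatus was read from 11 lists of 133 genes, of which 127 were in the file and 114 could be tested. At 12 h, 21 of the 114 passed, 14 higher and 7 lower, which is 18.4% beside 11.6% of all genes tested and 23.3% of genes counted as deeply as the 10 members, and 0 were called at 1.5-fold. At 24 h, 33 passed, 23 higher and 10 lower, which is 28.9% beside 16.3% of all genes and 29.7% of the deeply counted ones. Many of the 114 were counted less deeply than any of the 10 members, and CDH3, for one, had at most 20 counts in any library. The deeply counted share is therefore not matched in depth to these lists, here or below. Of the 114, 5 were called (LEF1, NKD1, NKD2, ESRP1 and DSC1), beside 2.45% of all genes. The median log2 difference of the 114 was 0.0063 at 12 h and 0.021 at 24 h. Many of these calls rested on 1 library: without 0 h library 1, 6 passed at 12 h and 10 at 24 h. The 4 highest and the 4 lowest that passed in each comparison, with a mean of at least 100 counts, are named below by rule. Any other gene named was chosen after its values were seen. Alternatives were followed gene by gene only for the calls named by rule. For the other calls from these lists, the lack of a note on alternatives does not mean that the call held in them. All differences below are on the log2 scale.

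Among nectins, afadin and actin linkers, which form and brace the adherens junction beside E-cadherin, 8 of 13 passed at 24 h, 6 higher and 2 lower, with a median of 0.14, beside 16.3% of all genes and 29.7% of deeply counted ones. NECTIN1, a calcium-independent adhesion receptor, rose by 0.34 (SE 0.061, adjusted p = 0.000118) and ACTN4, an actin crosslinker, by 0.20 (SE 0.045, adjusted p = 0.00165). NECTIN3 fell by 0.41 from 5.25 to 3.99 CPM (adjusted p = 0.0361), a call that was lost in 5 of 16 alternatives, among them without 0 h library 1 and without any one of the 24 h libraries. At 12 h NECTIN3 passed at 3.97 CPM (-0.41, adjusted p = 0.0453), and this call was lost in 11 of 16 alternatives, among them DESeq2 and the fits without 0 h library 1 or any one of the 12 h or 24 h libraries. AJUBA, a LIM protein that binds alpha-catenin, fell by 0.34 from 0 h (SE 0.048, adjusted p = 2.72e-06), and from 12 h to 24 h alone it fell by 0.22 (adjusted p = 0.00257). That last call was lost without 24 h library 1 (adjusted p = 0.0637).

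Of the other cadherins and catenins, 2 of 7 tested passed at 24 h, both higher, beside 16.3% of all genes and 29.7% of deeply counted ones. ARVCF and PKP4, relatives of p120-catenin, rose by 0.31 (SE 0.067, adjusted p = 0.00140) and 0.16 (SE 0.048, adjusted p = 0.0214). CDH2, the N-cadherin gene, had at most 2 counts in any library and was not tested. Of the desmosome genes, 3 of 12 passed at 24 h, beside the same shares. PKP3 rose by 0.22 and EVPL by 0.23, and DSC1, at 0.379 CPM at 0 h, fell by 1.74. DSC1 was near the floor, with 27 to 34 counts a library at 0 h and 3 to 14 at 24 h. DSP, which encodes desmoplakin, the protein that joins plakoglobin to keratin filaments, was at 493 CPM at 0 h, 559 CPM at 12 h and 469.8 CPM at 24 h. DSP passed as higher at 12 h (0.18, adjusted p = 0.0199) and as lower at 24 h than at 12 h (-0.25, adjusted p = 0.00171).

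Among the other claudins and membrane proteins of the tight junction, 3 of 16 passed at 24 h, beside 16.3% of all genes and 29.7% of deeply counted ones. MARVELD3 rose by 0.29, and CLDN12 and CLDN15 fell by 0.19 and 0.32. CLDN8 was lower at 12 h by -0.35 (adjusted p = 0.0388), a call that was lost in 9 of 16 alternatives, including without any one of the 0 h or 12 h libraries. CLDN7, another abundant claudin here at 275 CPM, differed by 0.019 at 24 h (adjusted p = 0.832). OCLN, which encodes occludin, rose by 0.19 from 12 h to 24 h (adjusted p = 0.0260), a call lost without 12 h library 1 or 3 or any one 24 h library. Of the plaque and polarity genes, 2 of 19 passed at 24 h, beside the same 16.3% and 29.7%. LLGL2, a polarity protein of the lateral membrane, rose by 0.41 at 24 h (SE 0.065, adjusted p = 1.93e-05) and had risen by 0.36 at 12 h (adjusted p = 0.000267). CGN, which encodes the ZO-1 partner cingulin, rose by 0.27 at 24 h (adjusted p = 0.00622) and by 0.29 at 12 h (adjusted p = 0.00534). The CGN call at 12 h was lost without 0 h library 1 (adjusted p = 0.273). Of 3 connexins tested, GJC1 passed at 24 h (0.27, adjusted p = 0.0264), again beside 16.3% and 29.7%.

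Of 11 genes of membrane proteases and their inhibitors, 4 passed at 24 h, beside 16.3% of all genes and 29.7% of deeply counted ones. ADAM17, a sheddase, fell by 0.41 at 24 h (SE 0.072, adjusted p = 7.94e-05). Its fall of 0.33 at 12 h (adjusted p = 0.00210) was lost without 0 h library 1 (adjusted p = 0.176). ADAM15 rose by 0.25 at 24 h (adjusted p = 5.29e-05), and so did ST14, which encodes the protease matriptase that cleaves EPCAM, by 0.27 (adjusted p = 0.000102), and SPINT1, which encodes an inhibitor of matriptase, by 0.16 (adjusted p = 0.0115).

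CTNNB1 did not pass, and some other genes of beta-catenin signalling did. In the destruction complex 2 of 8 genes passed at 24 h, beside 16.3% of all genes tested and 29.7% of deeply counted ones. They were the kinases GSK3B (-0.19, adjusted p = 0.00410) and CSNK1A1 (-0.17, adjusted p = 0.00441), both lower. Of 8 Wnt target genes tested, 5 passed at 24 h and all 5 were higher, with a list median of 0.50. Over all genes, 16.3% passed and 7.82% passed as higher. Over the deeply counted ones, 29.7% passed and 13.6% passed as higher. A list of 8 genes is small, and its median is a description. LEF1, a nuclear partner of beta-catenin, rose by 0.75 from 1.32 to 2.20 CPM (SE 0.20, adjusted p = 0.00962), NKD1 by 0.72 from 4.69 to 7.71 CPM (SE 0.10, adjusted p = 5.77e-06) and NKD2 by 0.63 from 3.27 to 5.06 CPM (SE 0.13, adjusted p = 0.000751). RNF43 and ZNRF3, which remove Wnt receptors from the membrane, rose by 0.37 (adjusted p = 0.0117) and 0.24 (adjusted p = 0.0148). At 12 h NKD1 (0.52, adjusted p = 0.000992) and RNF43 (0.42, adjusted p = 0.00730) passed. Without 0 h library 1 the calls of RNF43 at 12 h (adjusted p = 0.125), NKD2 at 24 h (adjusted p = 0.0717) and LEF1 at 24 h (adjusted p = 0.294) were lost, and that of LEF1 also without 24 h library 1, while NKD1 passed in all 16 alternatives at both times. AXIN2, a widely used Wnt target, differed by 0.34 at 24 h and did not pass (adjusted p = 0.0931), and LGR5 and SP5 had at most 1 and 8 counts.

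Of the repressors of CDH1 and mesenchymal genes, 1 of 7 tested passed at 24 h, beside 16.3% of all genes and 29.7% of deeply counted ones. VIM, which encodes vimentin, fell from 8.28 to 5.80 CPM (-0.52, SE 0.12, adjusted p = 0.00150). SNAI1, at 1.55 CPM at 0 h, differed by 0.22 (adjusted p = 0.559), SNAI2 was at 0.520 CPM and ZEB1 at 0.117 CPM at 0 h, and ZEB2 had at most 1 count in any library. Of 10 epithelial transcription and splicing factors, ESRP1 and ESRP2 passed at 24 h, in opposite directions, beside the same shares. ESRP1, which encodes an epithelial splicing regulator of CTNND1 and other transcripts, fell from 216 CPM at 0 h to 159 CPM at 12 h, a difference of -0.44 (SE 0.049, adjusted p = 2.19e-07). At 24 h it was at 134 CPM, a difference of -0.69 from 0 h (SE 0.049, adjusted p = 7.33e-12). ESRP1 also fell between 12 h and 24 h (-0.24, SE 0.044, adjusted p = 0.00118) and passed in every alternative run. ESRP2 rose by 0.18 (SE 0.049, adjusted p = 0.00876). GRHL2, a transcription factor that maintains CDH1 and claudin genes, differed by -0.012 (adjusted p = 0.911). ELF3, an epithelial ETS factor, rose by 0.26 from 12 h to 24 h (adjusted p = 0.0260), a call lost without 12 h library 2 or 3 or any one 24 h library. The counts are per gene, so isoforms of CTNND1 were not measured.

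**Figure D5:**
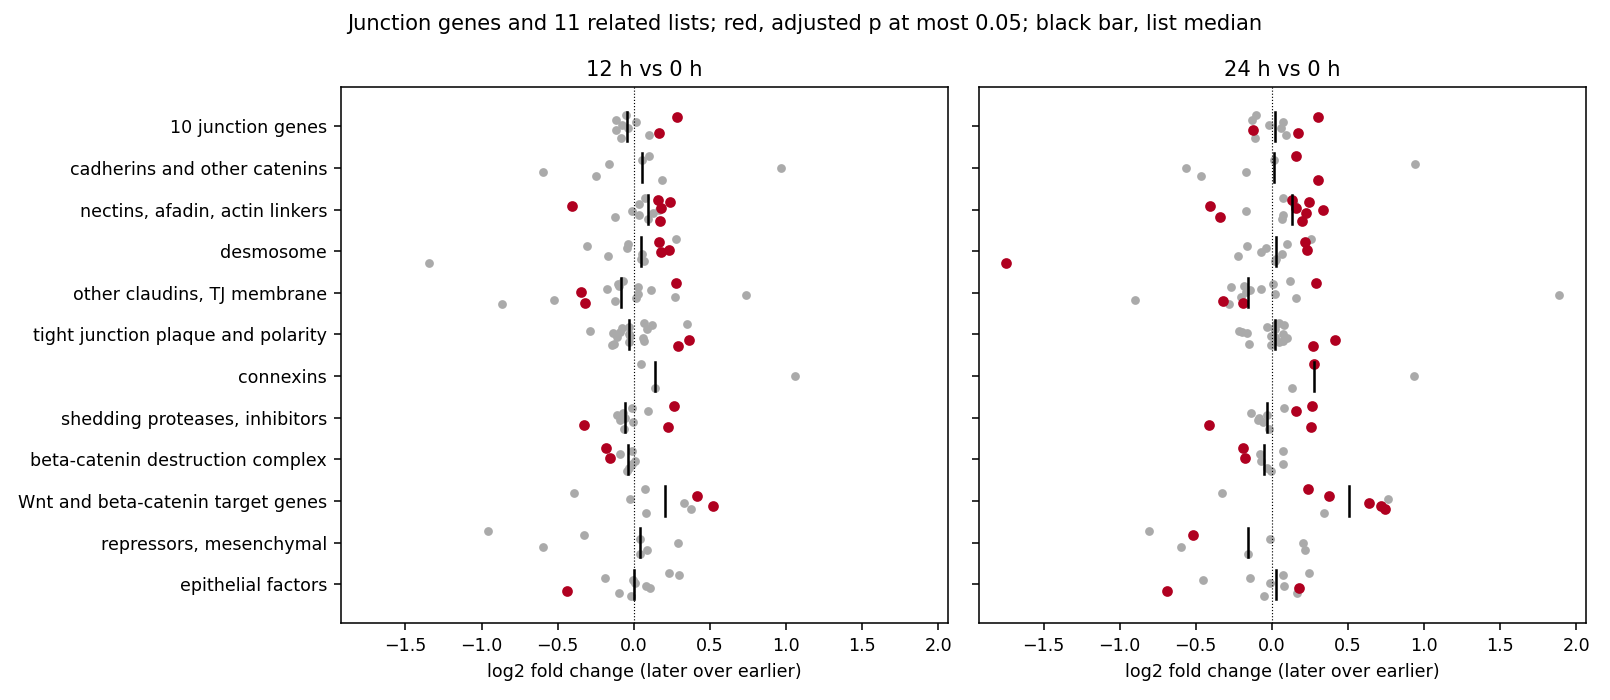
Log2 fold change of every tested gene of the 10 junction genes and 11 related lists at 12 h (left) and 24 h (right) against 0 h. Each point is a gene, red points passed at an adjusted p of at most 0.05, and black bars are list medians; the 10 junction genes lie between -0.13 and 0.31 at 24 h, and the Wnt target list has its median at 0.50 at 24 h.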

How the data were processed

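The deposited values are raw counts of reads per gene, without normalization. Per the study's methods, the authors trimmed adapters with Cutadapt, aligned reads to GRCh38 with STAR and counted them per GENCODE gene with featureCounts. Strand, read-pair and overlap options were not stated. A time-0 library had been left out by the authors for quality. Columns were matched to the labels by time and replicate number. One of the 2 columns named for 0 h is numbered 3 although the labels number these samples otherwise. It entered as a 0 h library with no replicate number, and is called 0 h library 3 after its column. There was no unused column of per-sample values. The labels call the replicates biological, and the methods describe wells plated in triplicate. Separate passages or days are not stated, so p-values measure only the spread between these libraries. Chi-square per degree of freedom within groups was 5.10 to 13.8, so no library was a duplicate of another from its own time point. Libraries of different time points were not compared in this way.

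Genes were tested with edgeR 4.0.16 in R 4.3.3 (glmQLFit, robust, and glmQLFTest, TMM normalization, filterByExpr, all 8 libraries), with a biological coefficient of variation of 5.59%. SE was derived from the fold change and F. Lengths came from GENCODE release 44. Every member is reported. From the 11 lists, the 4 highest and 4 lowest that passed were named for each comparison. Some listed genes are not reported here and were left out of all list counts and sums. The members and lists were chosen with earlier results of these data known. Alternatives were RLE and upper-quartile factors, no filter, a mean of at least 100 counts, DESeq2 1.42.0, the compared time points alone, coding genes alone, thinning of all libraries to the lowest total, each library left out, and, for 24 h against 12 h, a replicate block. Scripts were tested on simulated data.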

Additional observations from a re-analysis of the deposited data

How the results depend on the processing

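The count of junction genes that passed was 2 at 12 h and 3 at 24 h. It was 1 at 12 h with the compared time points alone and 5 at 24 h with DESeq2, and 1 to 3 at 12 h and 1 to 5 at 24 h with a library left out. The lowest counts came without 0 h library 1 (1 in each comparison, JUP) and, at 12 h, also without 12 h library 3. The highest came without 12 h library 2 at 12 h and without 12 h library 1 at 24 h. Of the other junction genes, 21 passed at 12 h, 12 with the compared time points alone and 6 to 23 with a library left out. At 24 h 33 passed, and 10 to 35 with a library left out, the lowest in both comparisons without 0 h library 1. Between 12 h and 24 h, 5 passed, and 3 to 6 with a library left out. With the replicate number as a block, 8 passed in place of 5, and 0 junction genes did. Deviations of same-numbered 12 h and 24 h libraries correlated at 0.101, 0.0278 and 0.0260. Libraries of different numbers were not correlated for comparison, so these values cannot decide whether the numbers pair the libraries. With a 0 h library left out, the lone other one was assumed to vary like the later groups. The cause of these shifts was not tested.

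Over the alternatives, 458 of the members' values kept their direction and their side of the threshold, 10 lost a call, 8 gained 1 and 14 changed sign. Counts thinned to the smallest total gave CTNND1 0.018 at 24 h. The other 13 came with a library left out. For 12 h against 0 h, values without a library ran from -0.164 to 0.025 for CTNND1 and from -0.040 to 0.085 for EPCAM, and for 24 h against 0 h from -0.11 to 0.083 for CTNND1. For 24 h against 12 h they ran from -0.056 to 0.0095 for CDH1, -0.041 to 0.12 for CTNND1, -0.00077 to 0.032 for JUP, -0.057 to 0.012 for CLDN3, -0.0012 to 0.027 for CLDN4 and -0.057 to 0.021 for F11R. With 2 libraries at 0 h, differences of a few percent were at the limit of what could be told from the spread.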
